A study of Mus musculus with 16 samples.

Results

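Hox genes encode homeodomain transcription factors that give cells their position along the head-to-tail axis, and they lie in 4 clusters whose gene order matches the order in which the genes are used along the body. Genes with the same number in different clusters are paralogues: low numbers act in the hindbrain and neck, middle numbers in the trunk and high numbers in the lumbar, sacral and tail region. In the nervous system they are best known for setting the identity of hindbrain and spinal motor neurons, while the forebrain, which includes the thalamus, forms in front of their domain. The Hox transcripts described here were all features whose symbol is Hox, a cluster letter and a number. They came to 38 of 39171 features, with 11 in the Hoxa, 10 in the Hoxb, 9 in the Hoxc and 8 in the Hoxd cluster.

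The transcripts were measured by RNA sequencing of astrocytes sorted by flow cytometry from 4 C57BL/6 mice at postnatal day 15. The 4 groups were IL-33 positive and IL-33 negative astrocytes of the spinal cord, and IL-33 positive and IL-33 negative astrocytes of the thalamus, with 4 libraries each. All animals carried the genotype IL-33-mCherry (het)/Aldh1l1-GFP+, so every group came from reporter mice with an mCherry reporter of the alarmin cytokine IL-33 and a GFP reporter of the astrocyte gene Aldh1l1. Each of the 4 mice gave 1 library to every group, and the sources used here do not say how GFP was used in sorting. Values are FPKM, fragments scaled by transcript length and by library size, as the authors deposited them, so levels can be compared between genes per length.

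Depth is unknown, libraries summed to 985000 to 2340000 FPKM, and an exact 0 can be a failed estimate, since the abundant Malat1 was listed at 0 in 10 libraries. The 12 astrocyte markers summed to 7990 to 8800 FPKM in spinal cord IL-33 positive and 5720 to 7360 FPKM in spinal cord IL-33 negative libraries, and to 4540 to 5380 and 4740 to 5750 FPKM in the positive and negative libraries of the thalamus. The 12 oligodendrocyte markers summed to 158 to 170 FPKM in spinal cord IL-33 positive and 3470 to 3670 FPKM in spinal cord IL-33 negative libraries, and all 12 passed the test between them. In the thalamus they summed to 78.1 to 115 FPKM in IL-33 positive and 467 to 972 FPKM in IL-33 negative libraries. The summed oligodendrocyte markers were thus higher in the IL-33 negative libraries of both regions.

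The clusters lie on chromosome 6 (Hoxa, 52155590 to 52260880, minus strand), chromosome 11 (Hoxb, 96194316 to 96368256), chromosome 15 (Hoxc, 102921103 to 103036852) and chromosome 2 (Hoxd, 74668310 to 74765142), the last 3 on the plus strand of GRCm38. The homeobox, the stretch that encodes the DNA-binding homeodomain, is shown for the 3 paralogues of number 8, which include the 2 most abundant members. Their 180 bases come from the GENCODE transcripts, at chr15:102992571-102992750 for Hoxc8, chr11:96284174-96284353 for Hoxb8 and chr2:74706525-74706704 for Hoxd8, all on the plus strand and each within 1 exon. Capitals mark the bases that differ from Hoxc8.
Hoxc8: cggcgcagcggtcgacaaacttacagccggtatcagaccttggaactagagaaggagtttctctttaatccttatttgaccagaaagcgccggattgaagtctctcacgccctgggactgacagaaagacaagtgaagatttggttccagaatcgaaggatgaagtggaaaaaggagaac
Hoxb8: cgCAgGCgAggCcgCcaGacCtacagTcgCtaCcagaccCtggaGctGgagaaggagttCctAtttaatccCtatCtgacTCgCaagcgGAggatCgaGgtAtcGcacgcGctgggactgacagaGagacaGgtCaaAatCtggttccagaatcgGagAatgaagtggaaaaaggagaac
Hoxd8: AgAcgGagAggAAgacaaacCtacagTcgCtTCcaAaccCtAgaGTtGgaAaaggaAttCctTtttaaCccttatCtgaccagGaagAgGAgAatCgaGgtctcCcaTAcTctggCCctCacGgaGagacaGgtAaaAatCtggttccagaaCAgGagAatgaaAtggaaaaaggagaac
Hoxb8 matched Hoxc8 at 80.0% of the homeobox bases, with 36 differences, and Hoxd8 at 73.3%, with 48. The longest run of bases shared by 2 of these 3 was 21. Over the 39 pairs of paralogues with the same number, identity ran from 67.2% to 93.9% with a median of 80.6%, and the lowest was that of Hoxb13 with Hoxd13 and the highest that of Hoxa3 with Hoxb3. The longest shared run over all pairs was 52 bases, in Hoxa6 and Hoxb4. The sources used here give neither the read length nor the treatment of reads that match several genes, so reads from such stretches may be assigned to either gene.

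Promoters are shown for the 4 members called, with or without a filter on low values, between IL-33 positive and negative spinal cord libraries, each as 250 bases before to 50 bases after the start site in RefSeq (GRCm38.p6). Capitals mark CG dinucleotides, the sites of DNA methylation. Hoxa9 is at chr6:52227321-52227620 and Hoxa10 has a start at each of chr6:52234890-52235189 and chr6:52240805-52241104, all on the minus strand. Hoxd1 is at chr2:74762730-74763029 and Hoxd10 at chr2:74691641-74691940, on the plus strand.
Hoxa9: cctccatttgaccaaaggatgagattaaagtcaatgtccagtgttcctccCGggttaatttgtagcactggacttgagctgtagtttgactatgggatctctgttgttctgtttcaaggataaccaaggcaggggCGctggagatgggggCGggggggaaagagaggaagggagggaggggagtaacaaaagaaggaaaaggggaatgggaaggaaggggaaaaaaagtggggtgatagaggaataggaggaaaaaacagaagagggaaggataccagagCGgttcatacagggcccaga
Hoxa10 inner start: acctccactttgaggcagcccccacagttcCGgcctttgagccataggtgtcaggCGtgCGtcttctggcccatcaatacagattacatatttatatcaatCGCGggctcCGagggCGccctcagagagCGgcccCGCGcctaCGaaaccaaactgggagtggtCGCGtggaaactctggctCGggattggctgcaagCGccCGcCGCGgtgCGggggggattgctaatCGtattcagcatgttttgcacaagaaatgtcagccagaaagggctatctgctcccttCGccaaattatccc
Hoxa10 outer start: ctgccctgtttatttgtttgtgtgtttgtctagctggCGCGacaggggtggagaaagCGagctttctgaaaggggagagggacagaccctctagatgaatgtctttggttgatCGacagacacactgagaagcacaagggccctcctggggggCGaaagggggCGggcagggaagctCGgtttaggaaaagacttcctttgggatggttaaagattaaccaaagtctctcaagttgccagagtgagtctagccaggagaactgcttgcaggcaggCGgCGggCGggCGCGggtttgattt
Hoxd1: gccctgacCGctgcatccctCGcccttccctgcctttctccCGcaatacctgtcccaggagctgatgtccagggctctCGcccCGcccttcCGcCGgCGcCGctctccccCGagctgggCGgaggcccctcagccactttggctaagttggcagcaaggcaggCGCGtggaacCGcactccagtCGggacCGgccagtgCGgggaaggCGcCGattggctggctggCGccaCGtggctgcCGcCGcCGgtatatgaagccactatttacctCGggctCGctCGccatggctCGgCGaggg
Hoxd10: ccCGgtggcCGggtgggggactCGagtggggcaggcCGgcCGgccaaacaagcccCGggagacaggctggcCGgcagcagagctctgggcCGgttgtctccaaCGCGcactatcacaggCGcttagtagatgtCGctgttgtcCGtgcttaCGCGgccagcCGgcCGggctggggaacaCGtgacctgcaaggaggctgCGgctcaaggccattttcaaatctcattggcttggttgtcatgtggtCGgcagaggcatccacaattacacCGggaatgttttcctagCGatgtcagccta
The Hoxa9 promoter held 4 CG dinucleotides, the inner and outer Hoxa10 promoters 21 and 12, the Hoxd1 promoter 29 and the Hoxd10 promoter 22. The 23 promoters of the 21 members with an entry had a median of 15, against a median of 7 over all 32851 promoters. The letters TGATNNAT, a site bound by PBX and HOX proteins together, were searched on both strands and occurred in 4 of the 23 member promoters (17.4%) and in 8.85% of all promoters. None of the 5 promoters printed here held them, which says only that the letters are not in these windows.

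The first comparison asked how Hox transcripts differed between astrocytes of the spinal cord and of the thalamus. Most of the family was higher in the spinal cord, the abundant members by a margin far beyond the spread between mice, and no member was called lower. The summed FPKM of the 38 members was 223 to 236 in spinal cord IL-33 positive libraries against 5.98 to 8.10 in thalamus IL-33 positive libraries. It was 236 to 292 in spinal cord IL-33 negative libraries against 2.23 to 7.99 in thalamus IL-33 negative libraries. The mean over the 8 spinal cord libraries exceeded the mean over the 8 thalamus libraries in 37 members, all but Hoxd13, a gene of digits and the urogenital tract whose highest value in any library was 0.330 FPKM. In bulk libraries, a lower level through fewer cells of a type and through less RNA per cell cannot be told apart.

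Limma on log2(FPKM + 1) without a filter on low values called 25 of 38 members higher in spinal cord IL-33 positive libraries, where 2.31% of 28560 features were called higher. In IL-33 negative libraries it called 28 of 38 higher, against 2.93% of features. With features kept only at 1 FPKM or more in at least 4 libraries, 28 members were tested and 26 were called higher in the positive gate (4.22% of 16340 features) and 25 in the negative gate (5.27%), with 25 called in both. These 28 passed that filter mainly through the spinal cord, so their share is a description. No member was called lower in either gate, against 1.88% of features in the positive and 4.54% in the negative gate (without a filter, 1.06% and 2.51%), and limma's difference was above 0 in all 28, so that 0 were lower at an unadjusted p under 0.05. All 4 spinal cord values lay above all 4 thalamus values in 33 of 38 members in the positive gate (9.39% of features) and in 28 of 38 in the negative gate (3.38%). They lay below them in 0 members in either gate, against 9.72% of features in the positive and 2.84% in the negative gate.

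In the negative gate all 12 oligodendrocyte markers were also called higher in the spinal cord, and 8 of 10 ependymal markers were called lower, with sums of 112 to 161 FPKM in the spinal cord and 340 to 620 FPKM in the thalamus. In the positive gate 1 of 12 oligodendrocyte markers was called higher and 1 of 10 ependymal markers lower. The part of these cell types in the Hox differences was not tested.

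**Figure D1:**
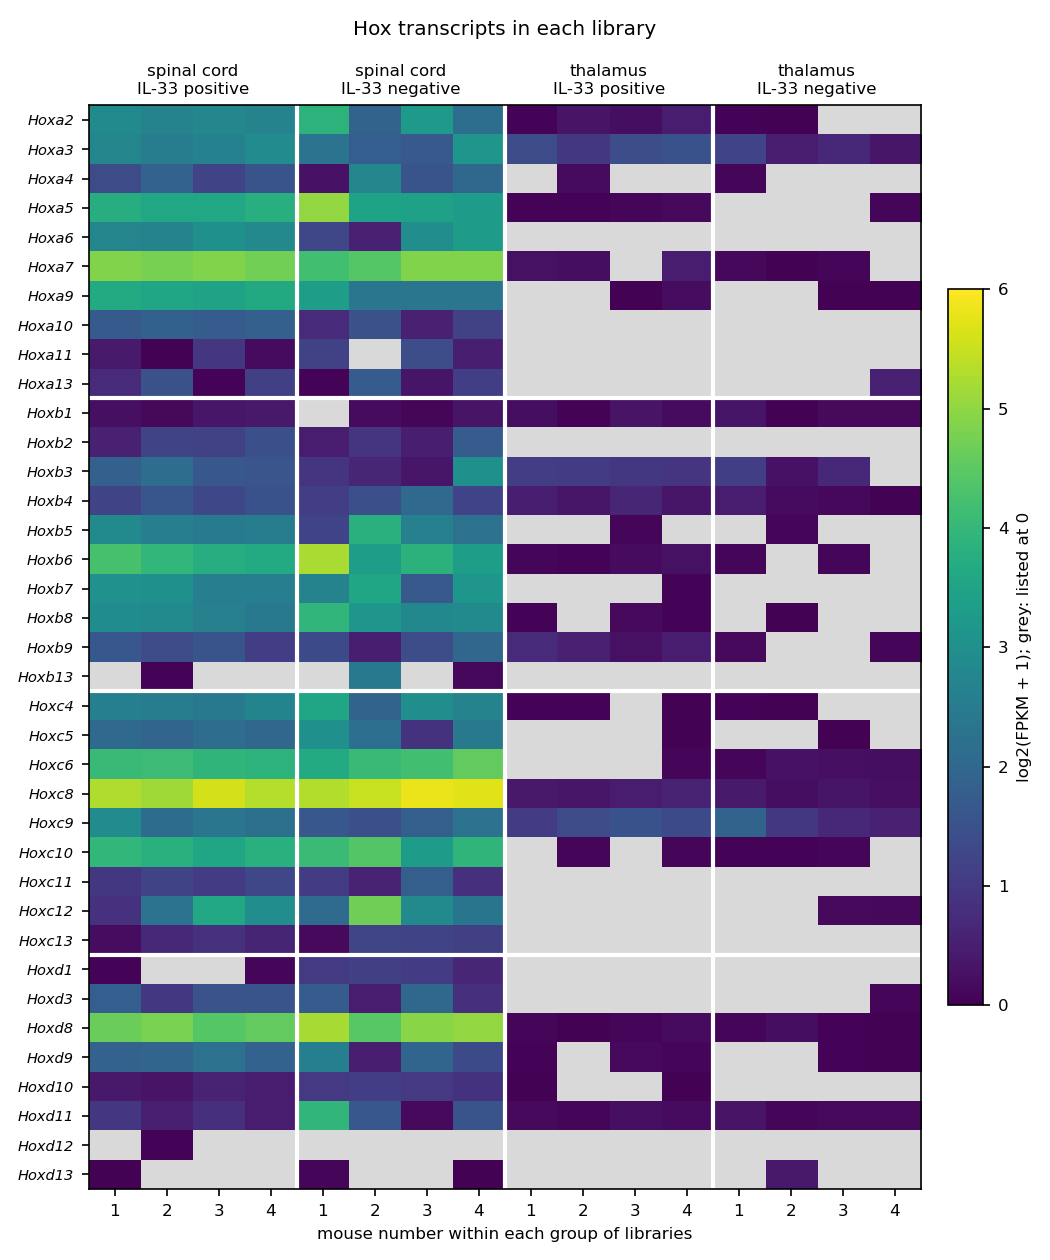
Heat map of the Hox transcripts described here, by cluster and paralogue number down the page, in the 16 libraries, as log2(FPKM + 1) with grey for a transcript listed at 0. The 8 spinal cord columns on the left are brighter than the 8 thalamus columns in most rows, and Hoxc8 is the brightest row, at 34.5 to 55.7 FPKM in the spinal cord.

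Hoxc8, which sets brachial and thoracic identity in the mouse, was the most abundant member. It was at 38.1, 34.5, 48.1 and 39.5 FPKM in spinal cord IL-33 positive and 38.5, 44.4, 55.7 and 52.5 FPKM in spinal cord IL-33 negative libraries. In the thalamus it was at 0.320, 0.280, 0.362 and 0.505 FPKM in IL-33 positive and 0.357, 0.163, 0.265 and 0.177 FPKM in IL-33 negative libraries. The regions lay apart by a wide gap, and Hoxc8 was above 0 in all 16 libraries. The difference of log2(FPKM + 1) was 4.90 ± 0.16 (SE) in the positive gate (limma adjusted p 1.06e-10) and 5.29 ± 0.16 in the negative gate (3.62e-11). This scale understates the change of a gene near 0 in 1 region: the mean FPKM of Hoxc8 was 109 times higher in the spinal cord in the positive gate and 199 times in the negative gate.

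Hoxd8, the abundant trunk paralogue of the Hoxd cluster, was at 24.1, 26.7, 20.3 and 22.7 FPKM in spinal cord IL-33 positive and 36, 20.6, 29.8 and 31.8 FPKM in spinal cord IL-33 negative libraries. In the thalamus it was at 0.0751, 0.0309, 0.0581 and 0.135 FPKM in IL-33 positive and 0.0775, 0.163, 0.0483 and 0.0243 FPKM in IL-33 negative libraries. No spinal cord library came within the range of the thalamus. The difference was 4.50 ± 0.17 in the positive gate (limma adjusted p 5.95e-10) and 4.8 ± 0.17 in the negative gate (2.40e-10). Hoxd9, which acts in the lumbar cord and the limb, was the next most abundant Hoxd member, at 2.70, 2.87, 3.71 and 2.70 FPKM in spinal cord IL-33 positive and 5.04, 0.427, 2.89 and 1.56 FPKM in spinal cord IL-33 negative libraries, against 0.0481, 0, 0.111 and 0.0624 FPKM in thalamus IL-33 positive and 0, 0, 0.0331 and 0.0314 FPKM in thalamus IL-33 negative libraries. Its difference was 1.91 ± 0.31 in the positive gate (limma adjusted p 0.00164) and 1.58 ± 0.31 in the negative gate (0.00448), where the call was lost without mouse 3 (0.0593).

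In the Hoxa cluster Hoxa7 and Hoxa5 were highest. Hoxa7, a thoracic gene, was at 27.9, 26.2, 28.1 and 25.2 FPKM in spinal cord IL-33 positive and 17.2, 20.3, 28.3 and 28.1 FPKM in spinal cord IL-33 negative libraries, against 0.208, 0.168, 0 and 0.402 FPKM in thalamus IL-33 positive and 0.0903, 0.0314, 0.0548 and 0 FPKM in thalamus IL-33 negative libraries. Hoxa5, which patterns the cervical and upper thoracic region and the lung, was at 12.4, 11.0, 10.9 and 12.6 FPKM in spinal cord IL-33 positive and 31.7, 10.1, 9.89 and 8.78 FPKM in spinal cord IL-33 negative libraries, against 0.0455, 0.0374, 0.0705 and 0.120 FPKM in thalamus IL-33 positive and 0, 0, 0 and 0.0596 FPKM in thalamus IL-33 negative libraries. Both were separated between the regions in each gate. The difference of Hoxa7 was 4.55 ± 0.18 in the positive and 4.52 ± 0.18 in the negative gate (limma adjusted p 6.59e-10 and 7.23e-10), and that of Hoxa5 was 3.57 ± 0.29 and 3.79 ± 0.29 (2.90e-06 and 1.19e-06). Hoxa7 shares 20.4% of its exonic bases with Hoxaas3 on the opposite strand, so its value may hold reads of both.

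In the Hoxb and Hoxc clusters the leading members were Hoxb6, Hoxb8 and Hoxc6, besides Hoxc8. Hoxb6, a trunk gene, was at 18.2, 14.6, 12.3 and 11.8 FPKM in spinal cord IL-33 positive and 36.7, 9.10, 13.5 and 9.26 FPKM in spinal cord IL-33 negative libraries. Hoxb8, needed for normal dorsal spinal cord circuits and grooming in the mouse, was at 6.53, 6.22, 5.16 and 4.38 FPKM in spinal cord IL-33 positive and 14.4, 7.96, 5.99 and 6.17 FPKM in spinal cord IL-33 negative libraries. Hoxc6, a marker of brachial motor neurons, was at 15.7, 16.2, 14.3 and 13.8 FPKM in spinal cord IL-33 positive and 11.8, 15.5, 17.1 and 22.7 FPKM in spinal cord IL-33 negative libraries. Each was called higher in the spinal cord in both gates, and the thalamus was near 0 throughout. There Hoxb6 was at 0.0825, 0.0433, 0.121 and 0.200 FPKM in IL-33 positive and 0.0637, 0, 0.0733 and 0 FPKM in IL-33 negative libraries. Hoxb8 was at 0.0375, 0, 0.116 and 0.0496 FPKM in the positive and 0, 0.0311, 0 and 0 FPKM in the negative libraries of the thalamus. Hoxc6 was at 0, 0, 0 and 0.0740 FPKM in the positive and 0.0667, 0.235, 0.187 and 0.175 FPKM in the negative ones, so no value of the 3 genes passed 0.235 FPKM. The differences in the positive gate were 3.76 ± 0.33 for Hoxb6, 2.63 ± 0.22 for Hoxb8 and 3.97 ± 0.18 for Hoxc6. In the negative gate they were 3.90 ± 0.33 for Hoxb6, 3.18 ± 0.22 for Hoxb8 and 3.90 ± 0.18 for Hoxc6, and the largest of the 6 limma adjusted p-values was 4.54e-06.

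The other members called in both gates had means of 1.105 to 13.8 FPKM over the 8 spinal cord libraries and at most 1.08 FPKM over the 8 thalamus libraries. Among them Hoxc10, a lumbar motor neuron gene chosen here after its values were seen, averaged 12.9 ± 1.63 FPKM in spinal cord IL-33 positive and 14.8 ± 4.66 FPKM in spinal cord IL-33 negative libraries (SD, n = 4 each), against at most 0.0842 FPKM in the thalamus. The 10 members below the filter included Hoxd12 and Hoxd13, which did not exceed 0.0834 FPKM in a spinal cord library. Hoxc13, which is needed for hair formation, was also below the filter, at 0.148 to 0.814 FPKM in spinal cord IL-33 positive and 0.111 to 1.40 FPKM in spinal cord IL-33 negative libraries, and was listed at 0 in all 8 thalamus libraries.

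**Figure D2:**
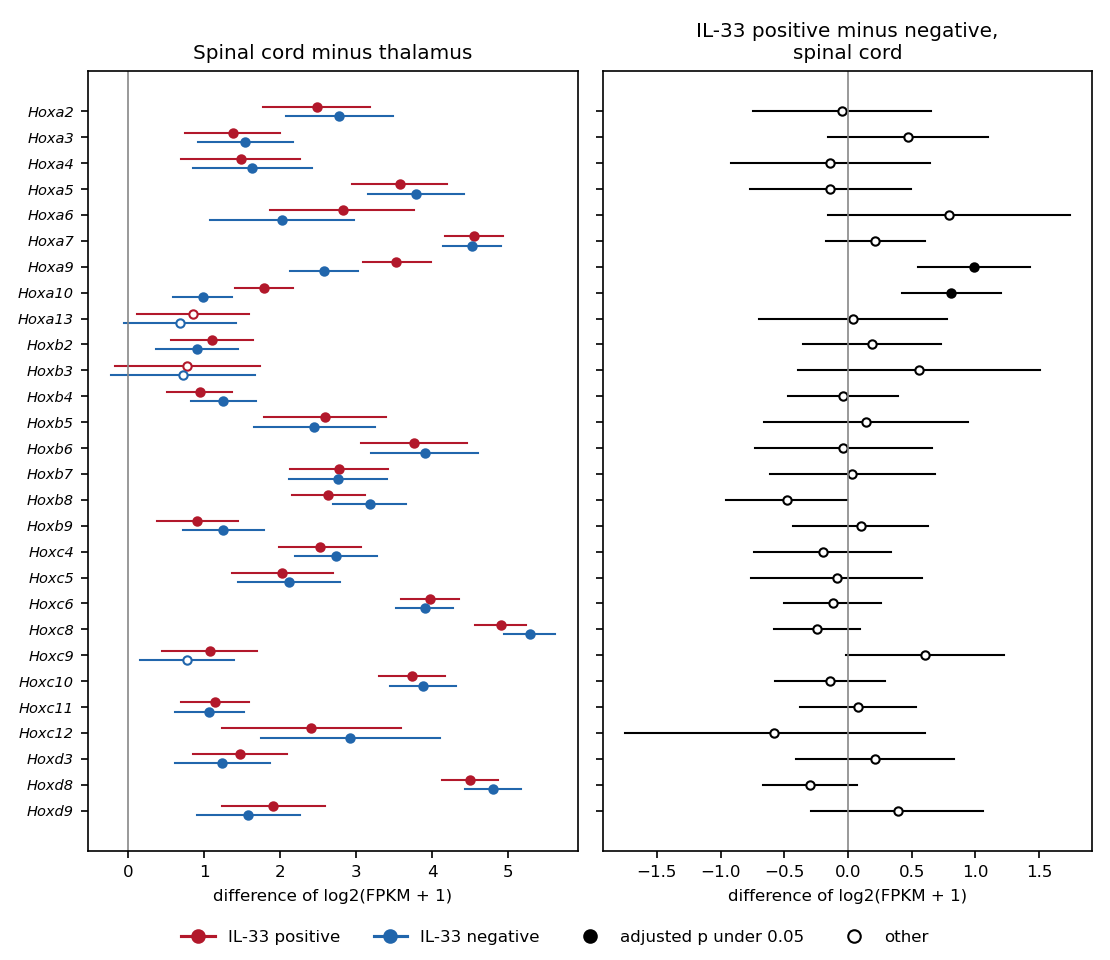
Differences of log2(FPKM + 1) with 95% confidence intervals for the 28 tested members, spinal cord minus thalamus on the left (red IL-33 positive, blue IL-33 negative) and IL-33 positive minus negative in the spinal cord on the right. Filled points have a limma adjusted p under 0.05: 26 red and 25 blue points on the left, all above 0, and Hoxa9 and Hoxa10 on the right.

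The tested members not called between the regions were Hoxb3 and Hoxa13 in both gates and Hoxc9 in the negative gate. Hoxb3 and Hoxc9 were also, with Hoxa3, the 3 members that reached 1 FPKM in a thalamus library. Hoxb3, a hindbrain gene, was at 2.60, 3.45, 2.08 and 1.99 FPKM in spinal cord IL-33 positive libraries against 1.14, 1.11, 0.978 and 0.914 FPKM in thalamus IL-33 positive libraries, with no overlap. In the negative gate it was at 0.886, 0.574, 0.295 and 7.12 FPKM in the spinal cord against 1.17, 0.232, 0.594 and 0 FPKM in the thalamus, which overlapped. Its difference was 0.78 ± 0.44 in the positive gate (limma adjusted p 0.407, 95% interval -0.17 to 1.73) and 0.72 ± 0.44 in the negative gate (0.374, -0.23 to 1.67). Without mouse 4 the negative gate gave -0.05, and with only the 2 groups compared in the fit the positive gate called Hoxb3 (0.00528). Hoxb3 shares 52.9% of its exonic bases with Hoxb3os on the opposite strand.

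Hoxc9, which sets thoracic motor neuron identity, was at 6.49, 3.33, 4.08 and 3.66 FPKM in spinal cord IL-33 positive libraries against 1.09, 1.62, 1.83 and 1.55 FPKM in thalamus IL-33 positive libraries. In the negative gate it was at 2.11, 1.77, 2.51 and 3.82 FPKM in the spinal cord against 2.76, 0.965, 0.583 and 0.473 FPKM in the thalamus. It was the member with the highest thalamus mean, 1.36 FPKM over 8 libraries. The difference was 1.07 ± 0.29 in the positive gate (limma adjusted p 0.0408, 0.00479 to 0.191 over 25 alternatives, lost in 16 of them) and 0.77 ± 0.29 in the negative gate (0.116, called without mouse 1 at 0.0137). The difference between the gates was 0.30 ± 0.41 (adjusted p 0.809). With mouse as a block the positive gate no longer called Hoxc9 or Hoxb9.

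Hoxa3, which patterns the hindbrain, neck and pharynx, was at 5.63, 4.76, 5.20 and 6.43 FPKM in spinal cord IL-33 positive libraries against 1.60, 0.954, 1.68 and 1.85 FPKM in thalamus IL-33 positive libraries. In the negative gate it was at 3.88, 2.46, 2.17 and 7.94 FPKM in the spinal cord against 1.31, 0.398, 0.584 and 0.292 FPKM in the thalamus. The regions did not overlap, with a difference of 1.38 ± 0.29 in the positive gate (limma adjusted p 0.0105) and 1.54 ± 0.29 in the negative gate (0.00333). The call in the positive gate was lost without mouse 1, mouse 2 or mouse 3, with adjusted p-values up to 0.0877. That in the negative gate was lost with only the groups compared in the fit (0.0735). Hoxa3 shares exonic bases with 4 genes on the opposite strand, among them Hoxaas2 (8.4% of its exonic bases) and Hoxaas3 (4.9%), so its value may hold reads of these. Hoxa13, a gene of the tail end, limb tips and genital tract, was not called in either gate. It was at 0.650, 1.80, 0.0440 and 1.19 FPKM in spinal cord IL-33 positive and 0.0345, 2.36, 0.267 and 1.16 FPKM in spinal cord IL-33 negative libraries, and was listed at 0 in 7 of 8 thalamus libraries, with 0.455 FPKM in the negative library of mouse 4. Its difference was 0.85 ± 0.35 in the positive gate (limma adjusted p 0.198) and 0.68 ± 0.35 in the negative gate (0.266).

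Values in the thalamus were low in most of the family. The highest means over the 8 thalamus libraries were those of Hoxc9, Hoxa3 and Hoxb3, at 1.36, 1.08 and 0.768 FPKM. The mean over the 8 thalamus libraries was under 0.1 FPKM in 27 members, 9 members were listed at 0 in all 8, and 8 were above 0 in all 8. Paralogues 1 to 3 made up 45.7% to 50.9% of the summed Hox FPKM in thalamus IL-33 positive libraries and 22.8% to 50% in thalamus IL-33 negative libraries. In the spinal cord their share was 7.47% to 8.53% in IL-33 positive and 3.51% to 8.99% in IL-33 negative libraries. Paralogues 4 to 8 made up 71.0% to 73.6% in spinal cord IL-33 positive and 69.2% to 79.0% in spinal cord IL-33 negative libraries. The paralogues of number 9 made up 26.2% to 35% in thalamus IL-33 positive and 19.3% to 35.8% in thalamus IL-33 negative libraries.

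The spinal cord levels did not follow cluster order in a simple way. Across the 38 members, the rank correlation of the mean spinal cord level with the paralogue number was -0.12, a description over genes that share libraries and are not independent. The highest mean of each cluster was that of Hoxa7, Hoxb6, Hoxc8 and Hoxd8, in the middle of the order, but Hoxc10 and Hoxc12 were also high. Hoxc12, chosen here after its values were seen, was at 0.814, 3.85, 10.9 and 6.73 FPKM in spinal cord IL-33 positive and 3.28, 25, 6.23 and 4.01 FPKM in spinal cord IL-33 negative libraries. It had the largest spread among the members with a spinal cord mean above 5 FPKM, with a coefficient of variation of 77.1% in the positive and 107% in the negative libraries.

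**Figure D3:**
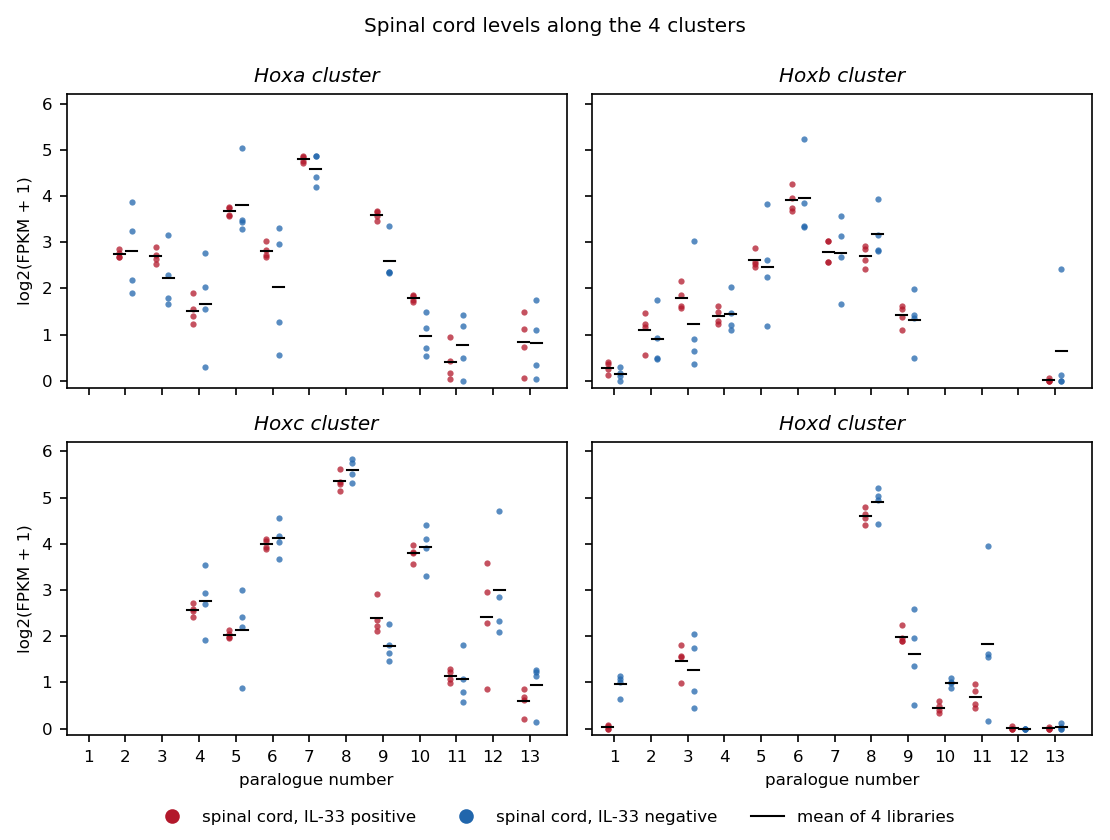
Levels in the spinal cord, as log2(FPKM + 1), against the paralogue number in each cluster, with a point per library (red IL-33 positive, blue IL-33 negative) and a line at the mean of 4 libraries. The highest means are at Hoxc8, Hoxd8 and Hoxa7, and the blue points of most members are more spread than the red ones.

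The share of each cluster was described by library, without a test. The Hoxc cluster held 35.8% to 42.2% of the summed Hox FPKM in spinal cord IL-33 positive and 31.1% to 47.9% in spinal cord IL-33 negative libraries. The Hoxa cluster held 31.4% to 33.3% in spinal cord IL-33 positive and 20.9% to 27.2% in spinal cord IL-33 negative libraries, ranges that did not overlap. The summed Hoxa FPKM itself did overlap, at 71.5 to 75.2 in the positive and 50.1 to 79.4 in the negative libraries. A share also depends on the summed level of the other clusters. The Hoxb cluster held 14.6% to 19.1% and 13.7% to 21.2% in the positive and negative libraries, and the Hoxd cluster 11.8% to 13.9% and 10.8% to 20.6%. The paralogues of number 9 held 8.28% to 9.76% in spinal cord IL-33 positive and 2.79% to 6.12% in spinal cord IL-33 negative libraries. Of these paralogues, Hoxa9 had the highest mean in both groups.

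The second comparison asked whether Hox transcripts differed between IL-33 positive and negative astrocytes of the spinal cord. Most did not pass the test. Of the 28 tested members, 2 were called higher in IL-33 positive libraries (9.04% of 16340 features were) and 0 were called lower (10.5% of features). An unadjusted p under 0.05 was found for 3 members, against 32.6% of features. The median difference of the 28 was 0.04, beside 0.09 over all features tested. The members called, Hoxa9 and Hoxa10, are neighbours in the Hoxa cluster. Across the 38 members, the log2 mean levels of positive and negative libraries had a Pearson correlation of 0.94, a description over genes.

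Hoxa9, a trunk gene also known for its role in blood stem cells, was at 11.7, 10.8, 10.0 and 11.6 FPKM in spinal cord IL-33 positive libraries against 9.16, 4.09, 4.08 and 4.11 FPKM in spinal cord IL-33 negative libraries. The groups did not overlap, and mouse 1 was high in the negative gate. The difference was 0.99 ± 0.21 (limma adjusted p 0.00369, 3.16e-05 to 0.0568 over 26 alternatives), it was positive in 4 of 4 mice, and the call was lost without mouse 4. Two-sided exact permutation of the 4 against 4 mean FPKM gave p = 0.0286, the smallest this design allows. In the thalamus Hoxa9 was at 0, 0, 0.0197 and 0.139 FPKM in IL-33 positive and 0, 0, 0.0279 and 0.0270 FPKM in IL-33 negative libraries. The difference between the regions' reporter effects was 0.95 ± 0.29 (limma adjusted p 0.113), which was called without mouse 1 and without that mouse's negative spinal cord library alone.

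Hoxa10, a lumbar gene that also patterns the uterus, was at 2.26, 2.63, 2.37 and 2.56 FPKM in spinal cord IL-33 positive libraries against 0.646, 1.82, 0.455 and 1.22 FPKM in spinal cord IL-33 negative libraries. Each positive library exceeded every negative one, and Hoxa10 was listed at 0 in all 8 thalamus libraries. The difference was 0.81 ± 0.18 (limma adjusted p 0.00563, 0.000566 to 0.0638 over 25 alternatives). The call was lost without mouse 3 and with a pseudocount of 0.1. Hoxa10 has no exonic overlap with another gene in GENCODE, and Hoxa9 overlaps only Mir196b, over 1.5% of its exonic bases. Leaving out mouse 4 from the spinal cord negative libraries raised the count of called members to 5, adding Hoxa3, Hoxa6 and Hoxb3.

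The most abundant members were not called. Hoxc8 differed by -0.24 ± 0.16 (95% interval -0.58 to 0.09, limma adjusted p 0.307), Hoxd8 by -0.30 ± 0.17 (-0.67 to 0.07, 0.245) and Hoxa7 by 0.21 ± 0.18 (-0.17 to 0.60, 0.438). Each interval includes differences of either sign and does not show equal levels, and Hoxc8 was lower in the positive library of all 4 mice. Hoxb8, with -0.48 ± 0.22 and a lower value in the positive library of all 4 mice, had an unadjusted p of 0.0469 and an adjusted p of 0.147.

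Below the filter, Hoxd1 and Hoxd10 were lower in the positive libraries. Hoxd1, which in the mouse shapes the connections of pain-sensing neurons, was at 0.0369, 0, 0 and 0.0622 FPKM in spinal cord IL-33 positive libraries against 1.02, 1.20, 1.10 and 0.554 FPKM in spinal cord IL-33 negative libraries. Hoxd10, a lumbar motor neuron gene, was at 0.319, 0.254, 0.510 and 0.397 FPKM in the positive against 0.989, 1.14, 1.00 and 0.847 FPKM in the negative libraries. Neither pair of groups overlapped, and neither exceeded 0.0322 FPKM in the thalamus. Both genes were chosen here after their values were seen.

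Without a filter, limma called 4 of 38 members in this comparison, Hoxa9 and Hoxa10 higher in the positive libraries (4.78% of 28560 features were) and Hoxd1 and Hoxd10 lower (5.86%). The difference was -0.93 ± 0.08 for Hoxd1 (adjusted p 4.22e-06) and -0.54 ± 0.06 for Hoxd10 (4.54e-05), on a log2(FPKM + 1) scale that compresses values this low. The fit shares its spread over all 4 groups, and Hoxd1 was listed at 0 in 8 and Hoxd10 in 6 thalamus libraries. These SE and p-values therefore do not measure the spread of the spinal cord libraries alone. Two-sided exact permutation of the spinal cord groups gave p = 0.0286 for each gene. The region-by-reporter difference was -0.93 ± 0.11 for Hoxd1 (adjusted p 0.00105) and -0.56 ± 0.09 for Hoxd10 (0.00461), where 0.781% of features were called in that direction and 0.56% in the other. Both genes were at or near 0 FPKM in the thalamus, so this difference largely repeats that of the spinal cord. In all, 3 of 38 members did not overlap and were higher in the positive libraries (9.86% of features) and 2 did not overlap and were lower (9.01%).

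**Figure D4:**
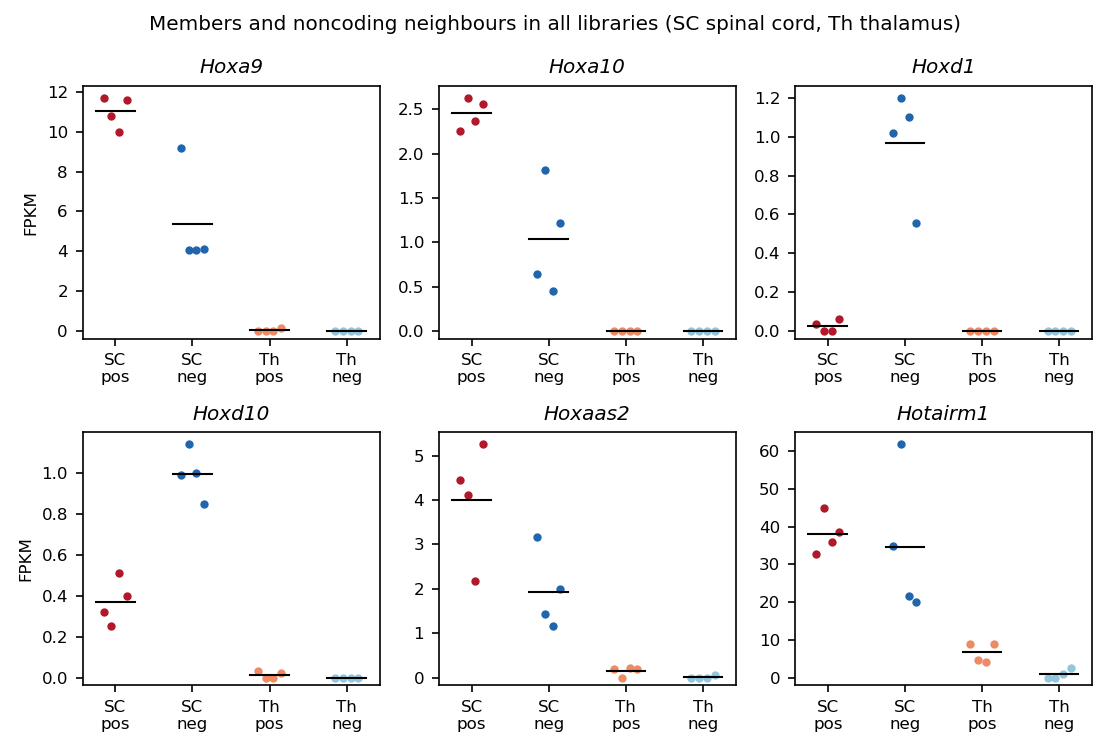
FPKM in each library, with a line at the group mean, for Hoxa9, Hoxa10, Hoxd1, Hoxd10 and the noncoding Hoxaas2 and Hotairm1 in spinal cord (SC) and thalamus (Th), IL-33 positive (pos) left of negative (neg). Hoxa9 and Hoxa10 are higher and Hoxd1 and Hoxd10 lower in the positive libraries of the spinal cord, and Hotairm1 is higher in the positive libraries of the thalamus.

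Markers of other cell types moved with the same comparison. Beside the oligodendrocyte markers above, the 10 ependymal markers summed to 4.02 to 6.81 FPKM in spinal cord IL-33 positive and 112 to 161 FPKM in spinal cord IL-33 negative libraries, and all 10 were called lower in the positive libraries. The 12 neuronal markers summed to 25.2 to 35.9 and 44.5 to 68.5 FPKM, with 1 of 8 tested called lower, and the 10 endothelial and mural markers to 13 to 15.7 and 53.4 to 118 FPKM, with 6 of 10 called lower, in the positive and negative libraries. The oligodendrocyte precursor markers summed to 220 to 267 and 399 to 445 FPKM, with 4 of 7 tested called lower, and the microglial markers to 20.5 to 27.8 and 26.1 to 38.1 FPKM, with 2 of 8 called lower, in the same order. No oligodendrocyte, ependymal, neuronal or endothelial and mural marker was at 0 in all 4 libraries of either group. Their part in the Hox differences was not tested.

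In the thalamus, 0 of 28 members were called between IL-33 positive and negative libraries, where 11.6% of features were called higher and 13.6% lower. These 28 passed the filter mainly through the spinal cord, and 27 of all 38 members averaged under 0.1 FPKM in the thalamus. On the log2(FPKM + 1) scale most could therefore hardly be called there, so the 0 does not show equal levels. Hoxa3 was the 1 member with an unadjusted p under 0.05, against 37.8% of features. It was at 0.954 to 1.85 FPKM in the positive and 0.292 to 1.31 FPKM in the negative libraries, with a difference of 0.64 ± 0.29 (limma adjusted p 0.127). The groups did not overlap in 2 of 38 members, Hoxa2 and Hoxb9, both higher in the positive libraries (8.7% of features). Hoxa2, a hindbrain gene, was at 0.0430, 0.246, 0.161 and 0.406 FPKM in thalamus IL-33 positive against 0.0365, 0.0254, 0 and 0 FPKM in thalamus IL-33 negative libraries, and both genes were chosen here after their values were seen. Without a filter 0 of 38 were called (6.77% of features higher, 7.49% lower). With a pseudocount of 0.1, limma called Hoxa3 and Hoxb9 higher and Hoxc6 lower. The test of the difference between the reporter effects of the regions called 0 of 28 members (1.13% of features higher and 1.43% lower). With most members near 0 FPKM in the thalamus, that test largely repeats the spinal cord comparison. In that test 2 members had an unadjusted p under 0.05, against 14.7% of features.

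Spread between mice was lower in the IL-33 positive libraries of the spinal cord. Of the 28 members with a spinal cord mean of at least 1 FPKM, all 28 had a smaller coefficient of variation in the positive than in the negative libraries, with medians of 16.2% and 64.6%. Over the 15514 features with a spinal cord mean of at least 1 FPKM, without an upper limit, 87.5% had a smaller one in the positive libraries. Their medians were 17.2% and 41.9%. The members thus had about the usual spread in the positive libraries and more than the median feature in the negative ones. The features were not matched to the members by level, so this is a description. Hoxb3 and Hoxd11 stood at the far end, with 148% and 142% in the negative against 26.4% and 43.4% in the positive libraries.

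**Figure D5:**
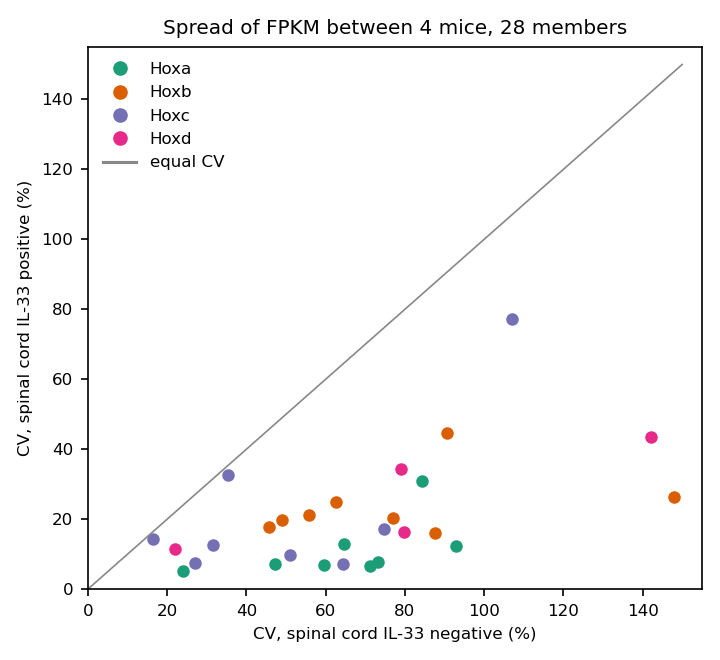
Coefficient of variation (CV, in %) of FPKM over 4 mice in spinal cord IL-33 positive libraries against that in spinal cord IL-33 negative libraries, a point per member with a spinal cord mean of at least 1 FPKM, coloured by cluster. All 28 points lie below the line of equal CV.

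Several noncoding genes lie within the clusters, and 7 of the 17 listed were tested. All 7 were called higher in the spinal cord in the IL-33 positive gate (4.22% of features) and 5 in the negative gate (5.27%). Apart from Hotairm1 they passed the filter through the spinal cord, so these counts are a description. Hotair aside, each tested one shares exonic bases with a Hox gene on the opposite strand, so its value may hold reads of both. The largest such share was 53.6% of the exonic bases of Hoxb3os, with Hoxb3. Hoxb3os was at 7.95 to 10.3 FPKM in spinal cord IL-33 positive and 4.42 to 7.83 FPKM in spinal cord IL-33 negative libraries, with differences of 3.19 ± 0.17 and 2.78 ± 0.17 from the thalamus. Hoxd3os1 was at 6.02 to 11.4 and 4.49 to 12.1 FPKM in the same groups, with 3.20 ± 0.25 and 2.93 ± 0.25. Hoxaas2 differed by 2.08 ± 0.23 in the positive and 1.49 ± 0.23 in the negative gate. The largest limma adjusted p of these 6 tests was 0.000646.

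Hotair, an RNA of the Hoxc cluster that in human cells has been tied to Polycomb silencing, differed by 1.06 ± 0.27 between the regions in the positive gate (limma adjusted p 0.0293) and by 0.91 ± 0.27 in the negative gate (0.0439). Hoxaas3 and Hoxa11os were called in the positive gate, with 1.5 ± 0.41 (0.0457) and 1.39 ± 0.26 (0.00477), but not in the negative gate, with 0.82 (0.26) and 0.81 (0.0686). The difference between the gates was not called for either, at 0.68 (adjusted p 0.659) and 0.58 (0.526). The calls of Hotair and Hoxaas3 were lost in several alternatives. In the positive gate Hoxaas3 lost its call in 16 of 24 (adjusted p up to 0.302) and Hotair in 5 of 17 (up to 0.0749), and in the negative gate Hotair lost it in 11 of 17 (up to 0.0744). Of the 10 noncoding genes not tested, the miRNA genes Mir196a-1 and Mir196a-2 were above 0 in 1 spinal cord IL-33 positive library each, at 14.3 and 10.2 FPKM. Mir10a, Mir10b, Mir196b, Mir615 and Halr1 were listed at 0 in all 16 libraries.

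Hotairm1, a long noncoding RNA of the Hoxa cluster, was the most abundant of these RNAs. It was at 32.8, 44.9, 35.8 and 38.5 FPKM in spinal cord IL-33 positive and 34.8, 61.8, 21.5 and 20.1 FPKM in spinal cord IL-33 negative libraries. In the thalamus it was at 8.81, 4.74, 4.26 and 8.91 FPKM in IL-33 positive libraries against 2.61e-49, 0, 0.977 and 2.47 FPKM in IL-33 negative libraries, the first in effect 0. The thalamus groups did not overlap, unlike those of the spinal cord. The thalamus difference was 2.19 ± 0.42 (limma adjusted p 0.0017, 0.000442 to 0.0252 over 26 alternatives), and that of the spinal cord was 0.27 ± 0.42 (0.696). The difference between the regions was -1.92 (adjusted p 0.114, 0.0379 to 0.348 over 25 alternatives) and was called in 1 of them, without the thalamus negative library of mouse 4. In the thalamus all 10 ependymal markers were called lower in IL-33 positive libraries (6.90 to 8.66 FPKM in the positive and 340 to 620 FPKM in the negative), as were 11 of 12 oligodendrocyte markers. Of the neuronal markers 4 of 8 tested were called lower (12.1 to 17.3 FPKM in the positive and 50.1 to 97.9 FPKM in the negative), and the part of these markers in the result was not tested.

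Hoxaas2 was the 1 listed noncoding RNA called between the gates of the spinal cord. It was at 4.45, 4.12, 2.17 and 5.26 FPKM in IL-33 positive against 3.16, 1.44, 1.16 and 2.00 FPKM in IL-33 negative libraries, and the groups overlapped. The difference was 0.77 ± 0.23 (limma adjusted p 0.029), positive in 4 of 4 mice, and the call was lost in 9 of 25 alternatives.

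Hox proteins bind DNA together with PBX and MEIS cofactors, all 9 listed genes of which were tested. In the positive gate 1 was called higher and 1 lower in the spinal cord, and in the negative gate 2 higher and 1 lower, where 4.22% and 5.27% of features were called higher and 1.88% and 4.54% lower in the positive and negative gate. Meis2 averaged 32.4 ± 9.23 FPKM in spinal cord IL-33 positive and 6.81 ± 1.94 FPKM in thalamus IL-33 positive libraries (SD, n = 4 each), a difference of 2.08 ± 0.46 (limma adjusted p 0.0124). Its call in the negative gate, with 1.55 ± 0.46 (0.045), was lost in 20 of 26 alternatives (up to 0.237). The 9 genes summed to 120 to 140 FPKM in spinal cord IL-33 positive and 113 to 135 FPKM in thalamus IL-33 positive libraries. In the negative gate they summed to 137 to 169 FPKM in the spinal cord (median 142) and 141 to 191 FPKM in the thalamus (median 187). The summed Hox level differed widely between the regions in both gates.

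Meis1 differed by the reporter in the thalamus, at 20.4 to 23.7 FPKM in IL-33 positive against 3.97 to 13 FPKM in IL-33 negative libraries, with 1.42 ± 0.29 (limma adjusted p 0.00286, 0.000888 to 0.0434 over 26 alternatives). In the spinal cord Pbx3 was called lower, at 3.17 to 4.28 FPKM in IL-33 positive against 6.15 to 39.3 FPKM in IL-33 negative libraries, with -1.47 ± 0.46 (0.0362, up to 0.131 over 26 alternatives).

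Polycomb and Trithorax proteins keep Hox clusters silent or active. Of the 13 tested genes of that list, 0 were called between the regions in the positive gate (1.88% of features lower, 4.22% higher). In the negative gate 1, Kdm6b, was called higher in the spinal cord (5.27% of features). Between the gates of the spinal cord 2 of the 13 were called lower in IL-33 positive libraries, where 10.5% of all features were. These were Kdm6b with -0.75 ± 0.19 (limma adjusted p 0.0134) and Bmi1 with -0.66 ± 0.18 (0.0202). Kdm6b encodes an enzyme that removes the Polycomb histone mark and Bmi1 a Polycomb subunit.

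Of the 16 genes listed as acting upstream of Hox genes, 11 were tested. In the spinal cord 1 was called higher in IL-33 positive libraries, the retinoic acid receptor Rarg with 1.26 ± 0.38 (limma adjusted p 0.0319), and 2 lower, Aldh1a2 and Nr2f2, where 9.04% of features were called higher and 10.5% lower. The call of Nr2f2, with -0.74 ± 0.24 (0.0441), was lost in 18 of 26 alternatives (up to 0.25). The Cdx genes, which open posterior Hox genes in the embryo, were listed at 0 in all 16 libraries for Cdx1, Cdx2 and Cdx4. Aldh1a2, which makes the retinoic acid that induces anterior Hox genes, was at 0.0232, 0.180, 0.247 and 0.746 FPKM in spinal cord IL-33 positive against 11.7, 10.0, 7.78 and 6.35 FPKM in spinal cord IL-33 negative libraries. It did not exceed 0.685 FPKM in the thalamus. The difference was -2.94 ± 0.23 in the spinal cord (limma adjusted p 4.11e-07), and the difference between the reporter effects of the regions was -2.78 ± 0.32 (0.000279), with the call kept in all 17 alternatives.

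Of 12 listed genes of forebrain and midbrain position 11 were tested. In the spinal cord 5 of 11 were called lower in the positive gate (1.88% of features) and 7 of 11 in the negative gate (4.54%), and 0 higher. Otx2, which specifies forebrain and midbrain, was at 0.0259 to 0.254 FPKM in spinal cord IL-33 positive against 31.1 to 40.8 FPKM in thalamus IL-33 positive libraries. In the negative gate it was at 0.0320 to 0.108 FPKM in the spinal cord against 34.4 to 50.4 FPKM in the thalamus. Its differences of -5.02 ± 0.15 in the positive and -5.37 ± 0.15 in the negative gate (limma adjusted p 1.04e-10 and 3.62e-11) were of about the size of that of Hoxc8 with the opposite sign.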

How the data were processed

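RNA of sorted astrocytes was sequenced in 16 libraries, with a kit that amplifies small amounts of RNA, per the labels' protocols. The authors deposited FPKM per feature. Per the submitters' processing notes, the build was GRCm38 and the tools included Cufflinks and Cuffnorm, with alignment tools TopHat2 2.0.11 and Bowtie2 2.2.3, besides HTSeq 0.6.1p1, DESeq2 and FastQC. The deposited table holds no counts, so depth is unknown and no counting interval was given. Low values did not share a common step per library: the commonest ratio held 0.752% to 2.12% of them. Of 39171 identifiers, 16252 had no symbol in the file, and 15208 of these were named from the reference. The authors' deposited table of comparisons held no Hox member and was not used.

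Log2(FPKM + 1) values were compared in R 4.3.3 by limma 3.58.1, with 1 coefficient per group over all 16 libraries, a trended prior and Benjamini-Hochberg adjustment over 16340 features. These had 1 FPKM or more in 4 or more libraries. The pseudocount of 1 FPKM and the log2 scale were applied here to the deposited values. A member is called at an adjusted p under 0.05. Two-sided exact permutation tests used mean FPKM. The spread flag is Dixon's test, with a critical value of 0.829. The 5 comparisons were the regions in each gate, the gates in each region and the difference between the 2 gate effects, and comparisons share groups. Replicate numbers mark the mouse, per the labels, so they pair the libraries. Deviations of same-mouse libraries correlated at a mean r of 0.036 (-0.013 to 0.092 over 24 pairs). Alternatives were a pseudocount of 0.1, no filter, a filter at 5 FPKM, median-of-ratios scaling, only the groups compared, the mouse as block, and leaving out each mouse and each library. The steps were tested on simulated data with changes placed only in more abundant features, so that run does not cover members at low levels.

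By the rule for named genes, values in every library are given for the 2 most abundant members of each cluster, members called between the gates, members not called between the regions, and members averaging 1 FPKM or more in a thalamus group. The members and lists were chosen with earlier results of these data known. The sources used here do not give the strand setting of the counting, so a gene and an overlapping antisense gene cannot be told apart. Some items are not reported here and were left out of the figures, while counts over all members and lists include them.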

Additional observations from a re-analysis of the deposited data

Results flagged for a closer look

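In 38 groups of 4 libraries, from 21 genes named here, 7 held a library far from the other 3, where chance flags about 1 in 20 groups. The groups share libraries and hold unlogged FPKM, and Hoxc12 and Hoxd11 were named after their spread was seen. That rate is therefore only a rough guide and the 7 are a description. Of the 7, 6 were in spinal cord IL-33 negative libraries and 4 in that of mouse 1. In the negative library of mouse 1, Hoxa5 was at 31.7 FPKM (8.78 to 10.1 in the other mice), Hoxb6 at 36.7 FPKM (9.10 to 13.5), Hoxa9 at 9.16 FPKM (4.08 to 4.11) and Hoxd11 at 14.5 FPKM (0.116 to 2.08). In that of mouse 2, Hoxc12 was at 25 FPKM (3.28 to 6.23), and in that of mouse 4, Hoxb3 was at 7.12 FPKM (0.295 to 0.886). In the spinal cord IL-33 positive library of mouse 3, Hoxd9 was at 3.71 FPKM (2.70 to 2.87).

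Among the Hox members and listed upstream genes, limma's test of the difference between the regions' reporter effects called Aldh1a2 (-2.78, adjusted p 0.000279). Without a filter on low values it also called Hoxd1 (-0.93, adjusted p 0.00105) and Hoxd10 (-0.56, adjusted p 0.00461). Hoxd1 was listed at 0 in all 8 thalamus libraries and Hoxd10 did not exceed 0.0322 FPKM there. For both Hox genes the test therefore largely repeats the spinal cord difference and shows no separate effect in the thalamus. Thalamus groups at or near 0 also lower the shared spread of that fit.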

How the results depend on the processing

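The count of Hox members called between the regions was 25 in the IL-33 negative gate and 26 in the positive gate. With a filter at 5 FPKM, which tests fewer members, both were 15. With only the groups compared the negative gate gave 14 of the 17 members that then passed the filter. Between the gates of the spinal cord, 2 members were called, against 1 with a pseudocount of 0.1, 1 with the filter at 5 FPKM and 4 without a filter. In the thalamus 0 were called, against 3 with a pseudocount of 0.1. The difference between the regions' reporter effects called 0, against 2 without a filter. Leaving out a mouse or a library gave 18 to 26 members for the regions in the positive gate, 18 to 25 in the negative gate, 1 to 5 for the gates of the spinal cord, 0 to 1 for those of the thalamus and 0 to 1 for the difference. The lowest region counts were without mouse 3 in both gates and, equally, without mouse 4 in the positive gate. With the mouse as replicate block the counts were 24 for the positive gate, 25 for the negative gate, 2, 0 and 0, and the calls lost were Hoxb9, Hoxc9 and Hoxaas3 in the positive gate, Meis2 in the negative gate and Nr2f2 in the spinal cord. Over 65 single-gene results, 1456 of 1606 alternative values kept direction and side of the threshold, 142 lost and 7 gained the call, and Hoxb3 in the negative gate reversed to -0.05 without mouse 4 (-0.05 to 1.06 over the left-out mice and libraries). Median-of-ratios scaling moved the median of all features by at most 0.02 in size. Depth is unknown, so values near 0 cannot be bounded.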

Other observations

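Among the noncoding genes below the filter, Haglr, beside Hoxd1, was at 0.909, 0.229, 0.941 and 0.735 FPKM in spinal cord IL-33 positive and 0.674, 0, 0.209 and 2.90 FPKM in spinal cord IL-33 negative libraries, and was listed at 0 in all 8 thalamus libraries. Hoxb5os was at 0.138 to 1.40 FPKM in spinal cord IL-33 positive libraries and was listed at 0 in 3 of 4 spinal cord IL-33 negative libraries. Hoxb13, the most posterior Hoxb gene, was at 4.36 FPKM in the spinal cord IL-33 negative library of mouse 2 and at most 0.0884 FPKM in every other library.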
